A study of Mus musculus with 15 samples.

Results

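The sodium-potassium pump (Na,K-ATPase) of the plasma membrane exports sodium and imports potassium at the cost of ATP, and so keeps up the gradients on which action potentials and sodium-coupled transport draw. Each pump joins a catalytic alpha subunit, which splits ATP and carries the ions, to a glycosylated beta subunit, which is needed for folding and delivery to the surface and tunes ion affinity. A small single-span protein of the FXYD family can bind to this pair and modulate transport. Purkinje cells (PCs) fire spontaneously at high rates, and the pump is known to shape their firing.

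The 5 genes described here are the beta subunit genes *Atp1b1*, *Atp1b2* and *Atp1b3* and the FXYD genes *Fxyd6* and *Fxyd7*. They were found by their symbols in the GENCODE M21 annotation among 38561 gene identifiers of the count files, and all 5 passed the filter on low counts that left 14293 genes to test. RNA of PCs cut out of cerebellar sections by laser capture microdissection was sequenced on the day of birth (P0) and at 4 later ages up to P21 (P4, P8 and P14 in between). Each age had 3 biological replicates, which gave 15 libraries. The mice were males of the strain labelled C56/BL6, and the labels name no transgene, deletion or treatment. Each library from P4 on came from 1000 PC soma collected from a few sections of a mouse, whereas P0 libraries came from clusters of PCs. The way of capture therefore cannot be told apart from age in any comparison with P0. This holds for the step from P0 to P4 and for the folds, shares and trends below that include P0. The libraries held between 3409371 and 7814951 counts on genes. The share of a library's total that was counted for no gene, ambiguous reads included, was 25.3% to 31.0% at P0. It was 21.5% to 24.7% at P4 and P8, and 18.2% to 20.7% at P14 and P21. Its part in the changes with age was not tested.

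The libraries carried PC transcripts, and they also carried transcripts of other cells. All 6 PC markers (*Pcp2*, *Pcp4*, *Car8*, *Calb1*, *Ppp1r17* and *Itpr1*) rose with age, and their sum went from 4549 to 6007 CPM at P0 up to 36886 to 46640 CPM at P21. *Ppp1r17* was nearly absent at first, with means of 0.988 CPM at P0 and 5.43 at P4, against 1577 at P21. CPM stands for counts per 1e6 of the library size after TMM scaling, which corrects for differences in composition between libraries. The 9 markers of Bergmann glia and astrocytes (*Slc1a3*, *Gdf10*, *Gfap*, *Aldh1l1*, *Aqp4*, *Fabp7*, *Hopx*, *Sparcl1* and *Gja1*) summed to 4462 to 6416 CPM at P0, which was 74.3% to 117% of the PC marker sum of the same library, and to 4597 to 6764 CPM, or 9.86% to 18.3%, at P21. Among the lists for other cells, 1 of 4 granule neuron markers rose and 1 fell, and 1 of 3 vascular markers fell. The 5 blood markers summed to 643 to 994 CPM at P0 and 499 to 884 CPM at P21, and the 3 interneuron and 4 microglia markers to at most 44.5 and 25.5 CPM in any library. In bulk RNA of this kind, fewer cells of a type and less RNA per cell cannot be told apart.

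The 5 genes followed 3 different courses. *Atp1b1* and *Atp1b2* rose with age, *Atp1b3* and *Fxyd6* fell, and *Fxyd7* was high from P4 to P14 and low at both ends. In the trend test with postnatal day as a number (edgeR's quasi-likelihood F test, Benjamini-Hochberg adjustment over all 14293 genes), 2 of the 5 passed an adjusted p of 0.05 upward and 2 downward, beside 12.1% and 14.1% of all genes tested, or 26.2% in either direction. The median slope of the 5 was -0.015 log2 units per day, beside -0.0077 over all genes tested. With age entered as a factor instead, which finds any pattern, 4 of the 5 passed, beside 19.3% of all genes. The 5 were chosen with earlier results of these data known, so these counts are descriptions and not a test of the group.

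**Figure D1:**
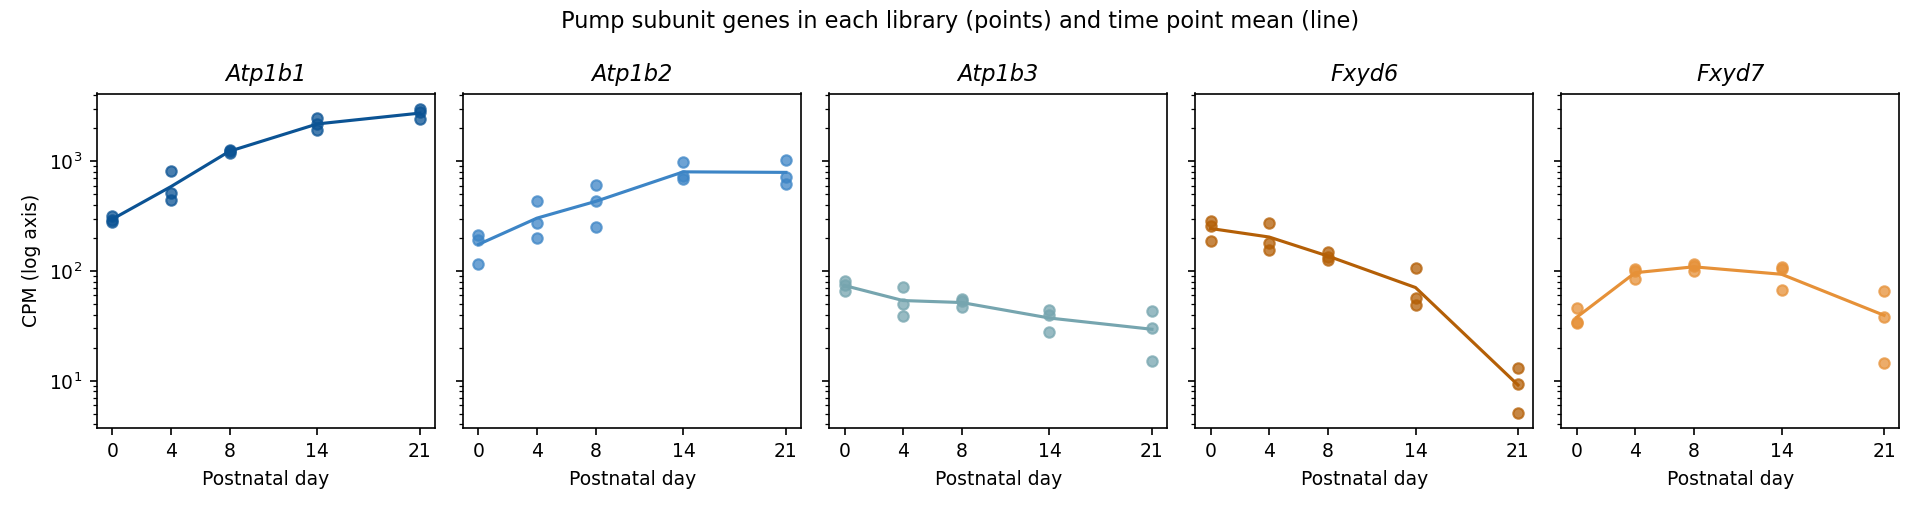
CPM of each pump subunit gene (log axis) against postnatal day, with 1 point for each of the 15 libraries and a line through the time point means. *Atp1b1* reaches 2428 to 3012 CPM at P21, *Fxyd6* drops to between 5.12 and 13.0 CPM, and *Fxyd7* forms a hump with its highest mean at P8.

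*Atp1b1* encodes the beta1 subunit, the commonest beta partner in neurons. The gene (ENSMUSG00000026576) lies on chromosome 1 of GRCm38, minus strand, from 164437109 to 164458355. Its CPM was 293, 279 and 320.2 in the P0 libraries, 513, 810.4 and 439 at P4, and 1239, 1266 and 1195 at P8. It went on to 2466, 1928 and 2171 at P14 and to 3012, 2795 and 2428 at P21. No library of P4 reached down to P0 or up to P8, and P8 lay below every P14 library, whereas the P14 and P21 values overlapped. The P21 mean of 2745 ± 295 CPM (SD, n = 3) was 9.24-fold the P0 mean of 297 ± 21.2.

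The slope of *Atp1b1* was 0.15 log2 units per day (SE 0.015, adjusted p = 5.92e-07 from edgeR). Between neighbouring ages, it rose by 0.98 log2 units from P0 to P4 (SE 0.19, adjusted p = 0.0125), by 1.07 from P4 to P8 (SE 0.19, adjusted p = 0.00927) and by 0.83 from P8 to P14 (SE 0.19, adjusted p = 0.0272). Of all genes tested, the P0 to P4 step passed in 1.97% (1.74% higher and 0.231% lower), the P4 to P8 step in 1.13% (0.882% higher and 0.252% lower) and the P8 to P14 step in 2.67% (1.29% higher and 1.38% lower). From P14 to P21 the difference was 0.33 (SE 0.19) and did not pass (adjusted p = 0.815). The P8 to P14 call was lost in 5 of 15 fits that each left out 1 library (P8 replicate 1, 2 or 3, or P14 replicate 1 or 3), where its adjusted p reached up to 0.131, and the P4 to P8 call was lost without P4 replicate 1 (adjusted p = 0.0507).

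Set against the summed PC markers of its library, *Atp1b1* stood at 4.64% to 6.43% at P0 and 5.99% to 6.65% at P21. These ranges overlapped, and the P4 libraries stood at 4.19% to 4.66%. In the annotation used here, the end of *Atp1b1* overlaps exons of *Nme7* on the opposite strand over 575 bases, 18.7% of its exon length. The libraries keep no strand, so reads that lie in both genes cannot be told apart. If the annotation used for counting holds this overlap, reads wholly inside both genes were tallied as ambiguous and counted for neither. The values of *Atp1b1* are uncertain to that extent.

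*Atp1b2* encodes the beta2 subunit, first known as an adhesion molecule on glia, and is found in astrocytes and in some neurons. The gene (ENSMUSG00000041329) lies on chromosome 11, minus strand, from 69599736 to 69605942. Its libraries held 214, 194 and 116 CPM at P0, 433, 201 and 275 at P4, and 433, 252 and 607 at P8. They held 689, 984 and 729 CPM at P14 and 723, 627 and 1026 at P21. P0 overlapped with P4 and P4 with P8, while every P14 and P21 library stood above every earlier one.

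The slope of *Atp1b2* was 0.11 log2 units per day (SE 0.017, adjusted p = 1.16e-04 from edgeR), and the P21 mean was 4.53-fold the P0 mean. No single step passed the test. The estimates were 0.79 log2 units from P0 to P4, 0.51 from P4 to P8, 0.89 from P8 to P14 and -0.016 from P14 to P21, with adjusted p between 0.212 and 1 from edgeR. The spread between libraries of 1 age was wide, for instance 431 ± 178 CPM (SD, n = 3) at P8.

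Because the beta2 subunit is a glial protein too, its level was set beside the glial markers. Of the 9 glial markers, 4 rose with age (*Slc1a3*, *Hopx*, *Sparcl1* and *Gja1*), 2 fell (*Aldh1l1* and *Fabp7*), and none was without counts. Their sum ranged from 6153 to 10413 CPM at P4, from 9340 to 11512 at P8 and from 8342 to 8853 at P14, so that its mean was highest at P8, while the P21 and P0 libraries overlapped. Single markers took different courses. *Fabp7*, the largest of the 9 at P0 and at P8, went from a mean of 2687 CPM at P0 to 4662 at P8 and 186 at P21. *Gja1* went from 37.2 to 275 CPM between P0 and P21. The means of *Slc1a3*, *Gdf10*, *Hopx*, *Sparcl1* and *Gja1* were highest at P14, as was that of *Atp1b2*. Those of *Gfap*, *Aldh1l1*, *Aqp4* and *Fabp7* were highest at P8. *Atp1b2* amounted to 1.81% to 4.34% of the glial sum, *Fabp7* included, at P0 and to 13.6% to 15.2% at P21. Against the PC marker sum it amounted to 2.13% to 4.71% at P0 and 1.34% to 2.78% at P21, ranges that overlapped. Within an age, the libraries ranked in the same order for *Atp1b2* and the glial sum at P8 and P21, but not at P0, P4 or P14. The 5 oligodendrocyte markers (*Cnp*, *Mag*, *Mbp*, *Mobp* and *Mog*) all rose, from a summed mean of 22.4 ± 11.8 CPM (SD, n = 3) at P0 to 569 ± 241 at P21. The part of either cell type in the rise of *Atp1b2* was not tested.

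**Figure D2:**
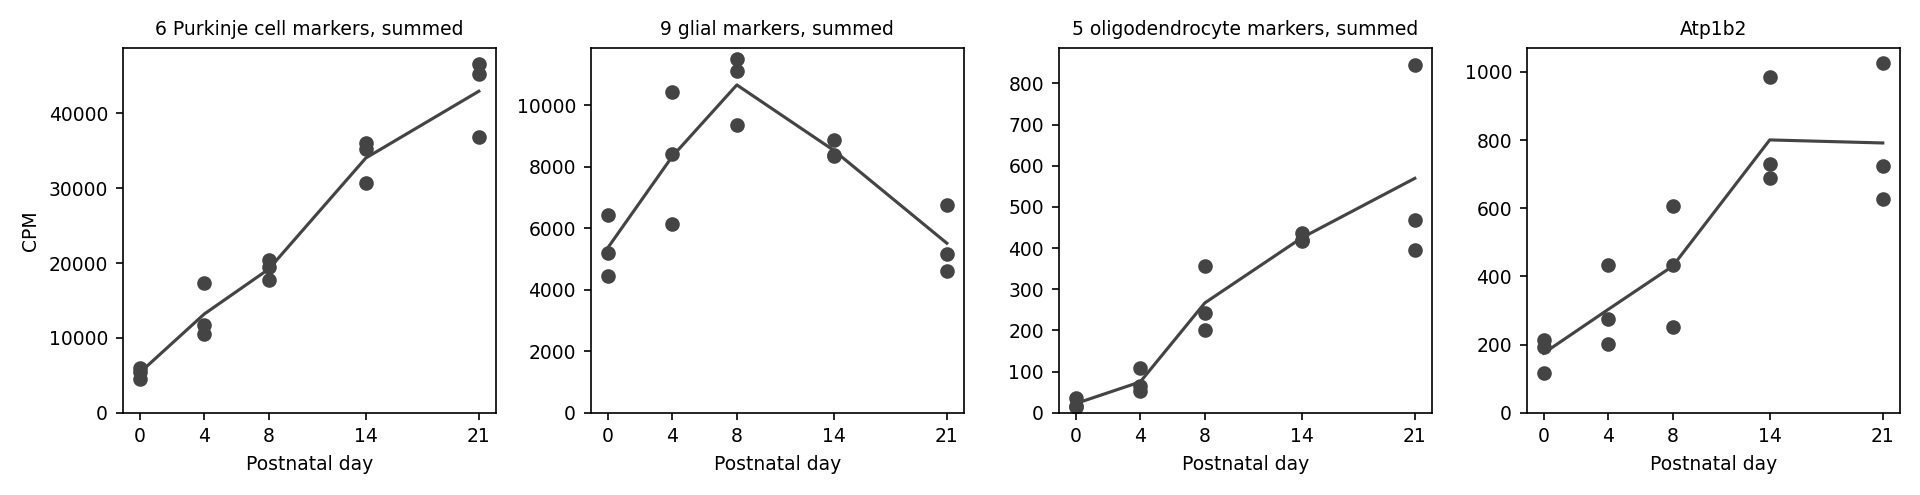
Summed CPM of the Purkinje cell, glial and oligodendrocyte marker lists and CPM of *Atp1b2*, against postnatal day (linear axes from 0), with 1 point per library and a line through the means. The mean glial sum peaks at P8, and the sum is at 4597 to 6764 CPM at P21. It includes *Fabp7*, whose mean is 4662 CPM at P8 and 186 CPM at P21. *Atp1b2* is at 627 to 1026 CPM at P21 against 116 to 214 CPM at P0.

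*Atp1b3* encodes the beta3 subunit, a further beta partner. The gene (ENSMUSG00000032412) lies on chromosome 9, minus strand, from 96332655 to 96364442. It had 74.4, 81.5 and 65.3 CPM at P0, 71.9, 39.2 and 50.4 at P4, and 46.6, 55.3 and 53.0 at P8. It had 44.5, 28.0 and 39.4 CPM at P14 and 30.0, 15.2 and 43.1 at P21. Every P8, P14 and P21 library lay below every P0 library, while P4 overlapped with P0 and P8, and P14 overlapped with P21 but lay below every P8 library.

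The slope of *Atp1b3* was -0.061 log2 units per day (SE 0.015, adjusted p = 0.00523 from edgeR), and the P0 mean of 73.7 ± 8.16 CPM (SD, n = 3) was 2.50-fold the P21 mean of 29.5 ± 13.9. The call rests in part on P0: without that age, the slope was -0.053 with an adjusted p of 0.0841. With the time point as a factor, the change did not pass (adjusted p = 0.102), and no single step did, with estimates between -0.47 and -0.058.

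*Fxyd6* encodes phosphohippolin, a neuronal FXYD protein. The gene (ENSMUSG00000066705) lies on chromosome 9, plus strand, from 45370185 to 45396159, with its relative *Fxyd2* downstream on the same strand. Its CPM was 258, 189 and 285 at P0, 181, 155 and 276 at P4, and 135, 126 and 150.1 at P8. It was then 56.7, 106 and 49.3 at P14 and 13.0, 9.32 and 5.12 at P21. P0 and P4 overlapped, P8 lay below all earlier libraries, P14 below P8, and P21 below P14 by a wide margin.

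The P0 mean of *Fxyd6* was 26.7-fold its P21 mean, and its slope was -0.21 log2 units per day (SE 0.027, adjusted p = 9.91e-06 from edgeR). The last interval held the largest of its steps. From P14 to P21 *Fxyd6* fell by 2.98 log2 units (SE 0.38, adjusted p = 0.00112), a step that passed downward in 0.266% of all genes tested and in either direction in 0.329% (0.063% higher), whereas the estimates for the 3 earlier steps were -0.26, -0.57 and -0.96 and did not pass (adjusted p = 0.833, 0.570 and 0.181). Counts at P21 were 39, 44 and 32, enough to show the gene above 0 in each library. The last step was -3.08 in limma-voom, where it did not pass (adjusted p = 0.135), and it passed in all 15 fits of edgeR that left out 1 library (adjusted p at most 0.0110).

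*Fxyd7* encodes a brain FXYD protein that associates with pumps holding the beta1 subunit. The gene (ENSMUSG00000036578) lies on chromosome 7, minus strand, from 31042513 to 31051467, in a row with *Fxyd5*, *Fxyd1* and *Fxyd3*. Its CPM was 34.0, 33.9 and 45.6 at P0, 101, 104 and 84.8 at P4, and 101, 115 and 112 at P8. It was 108, 105 and 67.4 at P14 and 65.8, 38.1 and 14.6 at P21. Every P4, P8 and P14 library lay above every P0 and P21 library, and P0 and P21 overlapped.

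The course of *Fxyd7* changed with age as a factor (adjusted p = 0.0155 from edgeR), while its slope with day was -0.015 (SE 0.031, adjusted p = 0.777). Its P8 mean of 109 ± 7.23 CPM (SD, n = 3) was 2.88-fold the P0 mean and 2.77-fold the P21 mean of 39.5 ± 25.6. The steps at either end were large but did not pass over all genes, with 1.35 log2 units from P0 to P4 (SE 0.40, unadjusted p = 0.00361, adjusted p = 0.106 from edgeR) and -1.25 from P14 to P21 (SE 0.40, unadjusted p = 0.00607, adjusted p = 0.372 from edgeR). With DESeq2 the first of these passed (1.29, adjusted p = 0.0396), and so it did in edgeR without P21 replicate 3 (adjusted p = 0.0253).

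**Figure D3:**
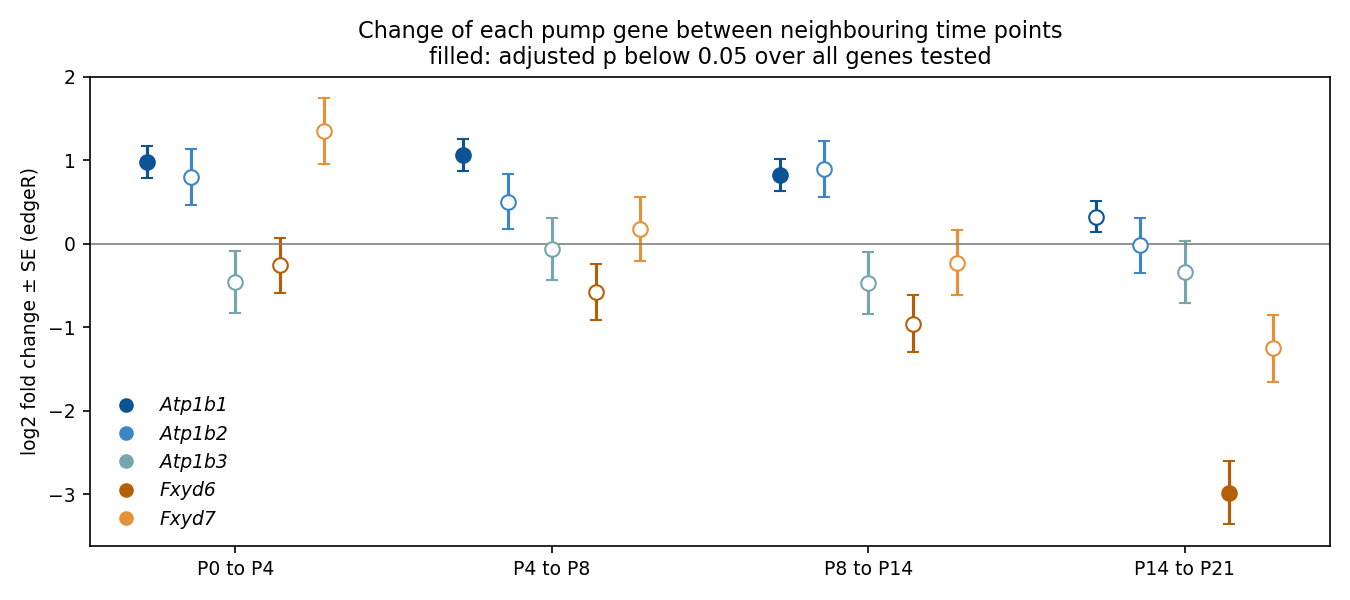
log2 fold change of each pump gene between neighbouring ages with its standard error from edgeR; filled points have an adjusted p below 0.05. The filled points are the first 3 steps of *Atp1b1* and the P14 to P21 step of *Fxyd6*, which is the largest change at -2.98.

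Levels of different genes were compared per length, as RPKM (counts per kilobase of summed exons and per 1e6 counts on genes). RPKM holds no TMM factor, so the size of a fold between ages differs between RPKM and CPM. The TMM factors were 1.11 to 1.13 at P0 and 0.851 to 0.893 at P21. At P0, *Atp1b1* stood at 108 ± 7.68 RPKM (SD, n = 3), above *Fxyd6* (66.3 ± 13.2), *Fxyd7* (61.0 ± 10.9), *Atp1b2* (47.7, from 31.9 to 58.1) and *Atp1b3* (34.5 ± 3.88). Each neighbouring pair among the last 4 overlapped between libraries, so that with summed exons as the length their order at P0 is not resolved. Every *Fxyd6* and *Fxyd7* library did lie above every *Atp1b3* library. At P21 the order was *Atp1b1* (777 ± 78.4), *Atp1b2* (169.9 ± 48.4), *Fxyd7* (49.6 ± 32.4), *Atp1b3* (10.8 ± 5.33) and *Fxyd6* (1.94 ± 0.837), and no neighbours overlapped. With the longest protein-coding transcript as the length, a choice made after the data were seen, *Fxyd6* at P0 (152 ± 30.3 RPKM) overlapped with *Atp1b1* (129 ± 9.17) and had the higher mean. By that length, every *Fxyd6* library at P0 (119 to 178 RPKM) lay above every *Fxyd7* (54.5 to 73.7) and *Atp1b2* library (45.8 to 83.6). *Fxyd7* and *Atp1b3* then overlapped at P21. By mean RPKM, *Atp1b1* went from place 480 to place 46 among 21186 protein-coding genes, and *Fxyd6* from place 775 to place 8370.

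Within each library, the 3 beta genes made up shares of their summed RPKM, which are free of the scaling between libraries. *Atp1b1* held 56.9% ± 7.04 of the beta sum at P0 and 81.1% ± 5.72 at P21 (SD, n = 3), ranges that did not overlap. *Atp1b3* went from 17.1% to 19.9% at P0 to 0.598% to 1.71% at P21, and its ranges at P0, P4, P8 and P14 lay each below the one before, while P14 and P21 overlapped. *Atp1b2* held 17.8% to 29.4% at P0 and 14.4% to 23.8% at P21, ranges that overlapped. The sum itself went from 190.0 ± 9.99 RPKM (SD, n = 3) at P0 to 958 ± 60.9 at P21. The beta genes thus moved from a mixture with a sizeable *Atp1b3* share to one made up nearly wholly of *Atp1b1* and *Atp1b2*.

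Among the 7 *Fxyd* genes, *Fxyd6* held 45.1% to 53.6% of the summed RPKM at P0 and 2.10% to 2.24% at P21. *Fxyd7* held 41.9% to 47.9% at P0, 75.4% to 86.7% at P14 and 35.4% to 67.0% at P21. *Fxyd1* made up 30.8% to 62.3% at P21. The levels of these shares depend on the length given to each gene, since *Fxyd7* has 693 bases of summed exons and *Fxyd6* 4107. With the transcript length, the mean share of *Fxyd6* at P0 was 61.7% and that of *Fxyd7* 24.8%. The drop of the *Fxyd6* share from P0 to P21 was seen with either length and with CPM. With summed exons as the length, the summed *Fxyd* RPKM was 0.715 ± 0.157 of the summed beta RPKM at P0 (SD, n = 3) and 0.0919 ± 0.0331 at P21. The level of this ratio also depends on the lengths, and it was not computed with the transcript length.

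**Figure D4:**
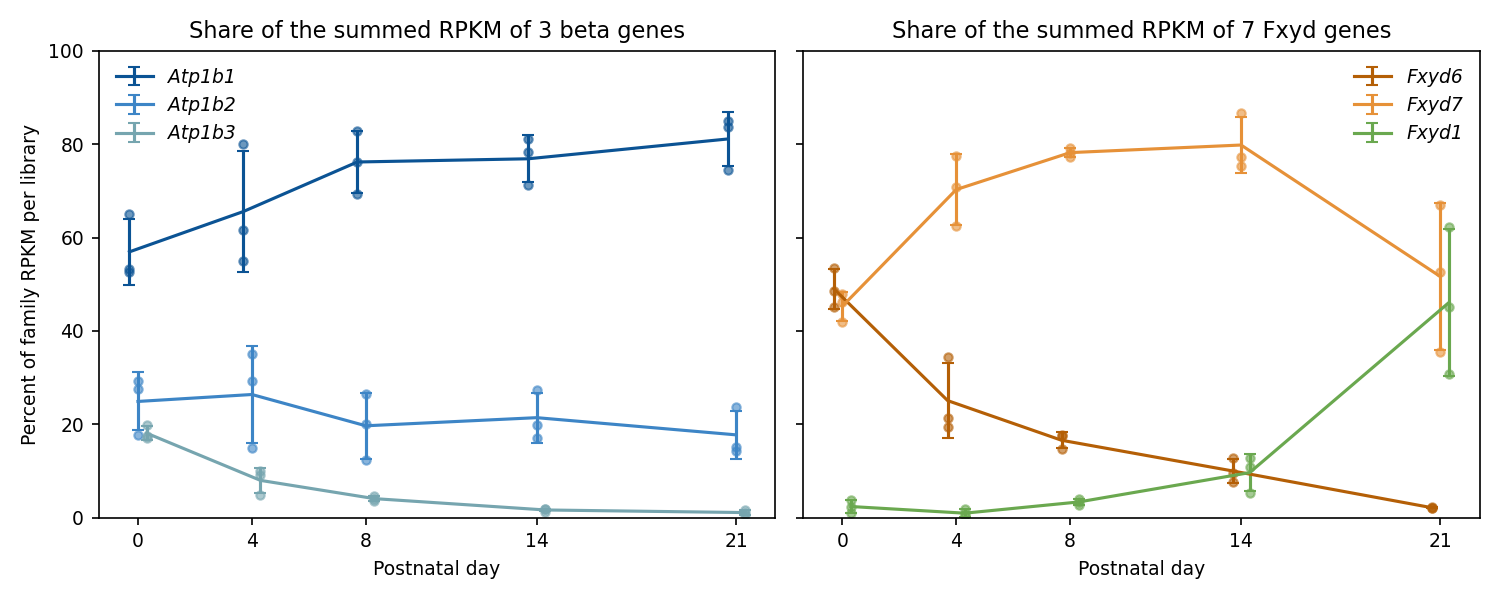
Percent of the summed RPKM of the 3 beta genes (left) and of the 7 *Fxyd* genes (right) held by each gene in each library, against postnatal day, with means, SD bars and 1 point per library, shifted slightly sideways. The *Atp1b3* share drops to between 0.598% and 1.71% and the *Fxyd6* share to between 2.10% and 2.24% at P21.

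The other beta and *Fxyd* genes and the related proton pump genes made up a list of 9, of which 4 passed the filter. Of these 4, 1 rose with day and 1 fell (background 12.1% and 14.1%), with a median of -0.25 log2 units per day for the slope, beside -0.0077 over all genes tested. That median lies between the slopes of *Fxyd5* and *Atp4a*, which had few counts and did not pass.

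*Fxyd1* encodes phospholemman, which in the brain is known from glia and choroid plexus as well as neurons. It rose from 6.24 ± 3.12 CPM (SD, n = 3) at P0 to 93.2 ± 11.4 at P21, a 14.9-fold difference (slope 0.20, adjusted p = 9.54e-06 from edgeR). The 4 choroid plexus markers (*Folr1*, *Kcnj13*, *Clic6* and *Kl*) summed to at most 0.198 CPM at P0 and to 46.1 to 116 CPM at P21, of which *Clic6* alone made up a mean of 79.5 of 80.0 CPM, while *Folr1* and *Kcnj13* had no count at P21. *Clic6* was the only one tested, and the part of such cells in the rise of *Fxyd1* was not tested. *Fxyd2*, the gamma subunit best known from kidney, fell from 12.4 ± 2.42 CPM at P0 to at most 0.424 CPM at P21 (slope -0.30, adjusted p = 0.00156). *Fxyd5* (slope -0.28, adjusted p = 0.107) and the gastric proton pump gene *Atp4a* (slope -0.21, adjusted p = 0.182) had few counts and did not pass. *Fxyd3*, with 12 counts in all, was below the filter, and *Atp1b4*, *Fxyd4*, *Atp4b* and *Atp12a* had no count in any library.

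Of the 5 genes for pump-interacting proteins, 4 were tested and 2 of them fell, beside 14.1% of all genes. *Agrn*, for agrin, an extracellular organizer of synapses that can bind the pump, fell from 116 ± 45.7 CPM (SD, n = 3) at P0 to 5.33 ± 2.23 at P21 (slope -0.23, adjusted p = 2.12e-06 from edgeR). Its step from P8 to P14 passed by itself (-2.48 log2 units, SE 0.41, adjusted p = 0.00366), as did 1.38% of all genes downward. Among the Nkain genes, whose small membrane proteins bind the beta1 subunit, *Nkain3* fell (40.2 ± 21.1 CPM at P0 and 1.02 ± 1.48 at P21, slope -0.22, adjusted p = 0.00104). *Nkain4* was at 121 ± 39.8 CPM at P0 and 89.3 ± 10.8 at P21 without passing (slope -0.021, adjusted p = 0.185), *Nkain1* did not pass (slope -0.19, adjusted p = 0.121), and *Nkain2*, with 8 counts in 1 P0 library, was not tested. The median slope of these 4 genes was -0.20 log2 units per day, beside -0.0077 over all genes tested.

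**Figure D5:**
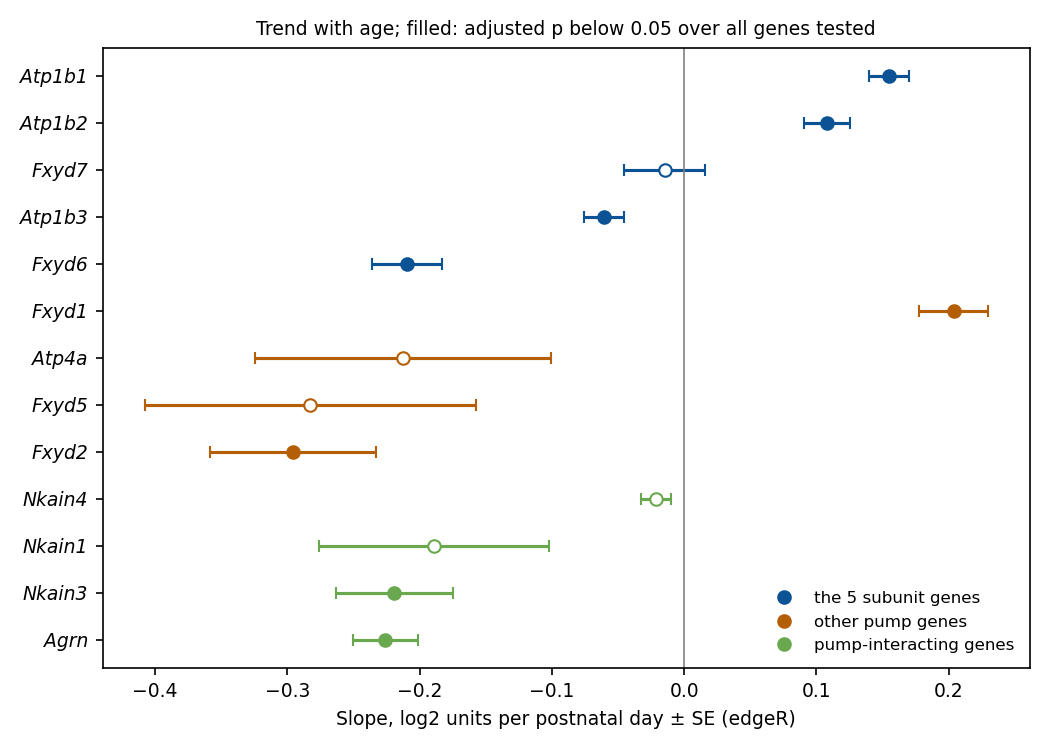
Slope with postnatal day (log2 units per day) and its standard error from edgeR for the 5 subunit genes, the 4 other pump and related genes and the 4 pump-interacting genes tested; filled points have an adjusted p below 0.05. *Fxyd1* has the steepest filled rise at 0.20 and *Fxyd2* the steepest filled fall at -0.30.

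The genes whose course was most like that of each subunit gene were found by Pearson's r of log2 CPM over the 15 libraries, among 9310 protein-coding genes with a mean of at least 10 CPM. These r values are descriptions, since libraries of 1 age share that age. For *Atp1b1* they were *Thy1* (r = 0.986), *Ppp4r4* (r = 0.986) and *Ywhah* (r = 0.984), and for *Atp1b2* they were *Sphkap* (r = 0.956), *Klf13* (r = 0.950) and *Bcap31* (r = 0.947). For *Atp1b3* they were *Fstl1* (r = 0.904), *Neo1* (r = 0.902) and *Eif4a3* (r = 0.897). *Fxyd6* was most like the histone gene *H3f3a* (r = 0.963), *Ly6h* (r = 0.962) and *Dynlt1a* (r = 0.960). The hump of *Fxyd7* had looser matches, with the transcription factor gene *Bhlhe22* (r = 0.893), the calcium sensor gene *Hpca* (r = 0.869) and *Lamtor4* (r = 0.829). *Hpca*, for hippocalcin, had means of 203, 351, 408, 314 and 121 CPM from P0 to P21. Between the 5 genes themselves, r was highest for *Atp1b1* and *Atp1b2* (0.848) and lowest for *Atp1b1* and *Fxyd6* (-0.802).

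RefSeq's promoter table on GRCm38.p6 held the start of 3 of the 5 genes, *Atp1b1*, *Atp1b3* and *Fxyd6*. The 250 bases before the start are shown because these genes moved apart over the same days, *Atp1b1* upward and the other 2 downward. Capitals mark matches on either strand to the TATA box letters TATAAA and the related letters TATATA, to the CCAAT box, to the GC box letters GGGCGG and to the E-box letters CAGCTG. The related TATA letters and those of the E-box read the same on both strands. The motifs were chosen with the sequences in view, and no match overlaps another. *Atp1b3* has a further start in the table that is not shown.
Atp1b1, chr1:164458356-164458605, minus strand: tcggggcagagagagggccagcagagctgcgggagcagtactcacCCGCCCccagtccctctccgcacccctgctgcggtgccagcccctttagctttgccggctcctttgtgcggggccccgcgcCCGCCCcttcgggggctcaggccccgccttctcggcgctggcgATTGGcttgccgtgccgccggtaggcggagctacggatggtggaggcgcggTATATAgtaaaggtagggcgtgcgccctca
Atp1b3, chr9:96364432-96364681, minus strand: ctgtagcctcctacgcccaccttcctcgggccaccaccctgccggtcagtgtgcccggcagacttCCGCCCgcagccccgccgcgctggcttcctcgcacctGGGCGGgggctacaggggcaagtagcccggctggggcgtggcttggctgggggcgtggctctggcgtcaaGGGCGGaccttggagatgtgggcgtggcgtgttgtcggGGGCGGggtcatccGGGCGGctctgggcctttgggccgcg
Fxyd6, chr9:45369935-45370184, plus strand: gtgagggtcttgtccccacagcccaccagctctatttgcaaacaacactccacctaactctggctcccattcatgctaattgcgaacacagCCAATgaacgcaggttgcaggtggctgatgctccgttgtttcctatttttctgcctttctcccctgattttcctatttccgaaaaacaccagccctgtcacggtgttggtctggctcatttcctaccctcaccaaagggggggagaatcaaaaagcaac

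The *Atp1b1* window held TATATA from base -30 to base -25 before the start, a sequence found in 5.25% of the 32851 promoter windows of the table. It also held 1 CCAAT match on the opposite strand (from -81 to -77, 33.8% of windows) and 2 GGGCGG matches (32.7% of windows). The *Atp1b3* window shown held 5 matches to GGGCGG and none to the other letters, and the *Fxyd6* window 1 match to CCAAT. Both *Atp1b* windows shown held 24 CG pairs in 250 bases, as many as or more than in 89.3% of all windows. The window of the further *Atp1b3* start held no match to any of the letters. It held 35 CG pairs, as many as or more than in 97.4% of all windows. Which start these cells use was not tested. The *Fxyd6* window held 5, as many as or more than in 49.6%. TATAAA (12.4% of windows) and CAGCTG (13.0%) were in none of the 3 windows shown.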

How the data were processed

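RNA of laser-captured Purkinje cells was sequenced from 15 mouse libraries, 3 for each of 5 postnatal ages, with ages and replicates as the sample titles give them. The authors removed adapters with cutadapt 1.2.1 and mapped the reads with GSNAP 2012-07-20 (GRCm38/mm10). Reads with 1 location were counted by HTSeq 0.5.3p9 in its intersection-strict mode. The deposited values are these raw counts per gene, 1 library a file, and the annotation release used for counting is not given in the sources used here. Tallies of reads counted for no gene, ambiguous reads among them (18.2% to 31.0% of a library's total), were left out. The libraries were made with a kit that keeps no strand.

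From the counts, edgeR 4.0.16 (R 4.3.3) gave TMM factors, CPM and quasi-likelihood F tests across all genes that passed filterByExpr by age, with day as a number, with age as a factor, and for the 4 steps between neighbouring ages. Benjamini-Hochberg adjustment ran over all 14293 genes, with a threshold of 0.05. RPKM used total counts on genes and summed exons of GENCODE M21, which names 36639 of the identifiers. Standard errors were derived from the estimate and its F statistic. Intervals between ages rest on 3 libraries each, which limits their precision. The common biological coefficient of variation was 0.757 in the trend fit. That value also holds departures of the ages from a straight line, so it is not the spread between libraries of 1 age. Alternatives used DESeq2 1.42.0, limma-voom (limma 3.58.1), other scalings and filters, the replicate number as a block, log2(day + 1), no P0, and each library left out. On simulated counts, the trend test recovered 131 of 200 genes with a slope of 0.1 log2 units per day (13796 genes, 9 false calls), and the P4 to P8 step test 92 of 200 genes with a jump of 2 log2 units (13816 genes, 2 false calls).

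Genes named are the 5 subunit genes, the listed pump, interacting and marker genes, and the 3 genes most like each subunit gene. Some listed genes are not reported here. The members and lists were chosen with earlier results of these data known. Calculations and figures used Python 3.11.15, numpy 2.4.6, pandas 2.3.3 and matplotlib 3.10.9.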

Additional observations from a re-analysis of the deposited data

How the results depend on the processing

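The slopes of *Atp1b1*, *Atp1b2* and *Fxyd6* kept their direction and an adjusted p below 0.05 under every alternative run, among them the replicate block (0.15, 0.11 and -0.21; adjusted p = 3.81e-06, 2.88e-04 and 4.75e-05 from edgeR). Same-numbered libraries did not deviate together (r between -0.032 and 0.047 over 30 pairs), and the block changed no call of the 5 genes. *Atp1b3* lost its trend call without P0 (slope -0.0529), and gained the call of any change with total counts only (adjusted p = 0.0271 from edgeR) and with DESeq2 (0.0300). The slope of *Fxyd7*, never called, turned to 0.16 with log2(day + 1) and lay between -0.031 and 0.013 with 1 library left out, being 0.0016 without P21 replicate 2 and 0.013 without P21 replicate 3. Without P0, the slope of *Fxyd7* was -0.074 (adjusted p = 0.0587 from edgeR). Uncalled steps also changed sign: *Atp1b2* from P14 to P21 was 0.0067 with RLE factors, 0.0066 with DESeq2, 0.0077 with limma-voom, 0.16 without P14 replicate 2, 0.046 without P21 replicate 1 and 0.13 without P21 replicate 2 (range -0.25 to 0.16 with 1 library left out), and *Atp1b3* from P4 to P8 was 0.065 with limma-voom and 0.19 without P4 replicate 1 (range -0.24 to 0.19).

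Without TMM, the median of all genes from P8 to P14 moved from -0.041 to -0.19 and from P14 to P21 from -0.030 to -0.13, and 30.0% of trend calls were upward against 46.1% (55.3% with limma-voom, 55.7% with log2(day + 1)). From P0 to P4, 281 genes were called, 773 with DESeq2 and 186 to 302 with 1 library left out; from P4 to P8, 162, 496 with DESeq2, 310 with limma-voom and 74 to 201; from P8 to P14, 382, 844, 600 and 163 to 441; from P14 to P21, 47, 175 with DESeq2 and 24 to 68. The causes were not tested. With CPM in place of RPKM, mean shares at P0 were 31.7% for *Atp1b2*, 13.5% for *Atp1b3*, 80.1% for *Fxyd6* and 12.5% for *Fxyd7*, 47.0% for *Fxyd7* at P14, and at P21 6.23% for *Fxyd6*, 25.8% for *Fxyd7* and 67.7% for *Fxyd1*. With transcript length they were 61.7% and 24.8% for *Fxyd6* and *Fxyd7* at P0, 58.0% for *Fxyd7* at P14, and 2.33%, 24.9% and 72.6% for *Fxyd6*, *Fxyd7* and *Fxyd1* at P21.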
